A study of Homo sapiens with 6 samples.

Results

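The diacylglycerol kinases are lipid kinases that convert diacylglycerol into phosphatidic acid. The 8 genes described here, DGKA, DGKD, DGKE, DGKG, DGKH, DGKI, DGKQ and DGKZ, were taken by symbol from the 63140 gene rows of the deposited count table. The study measured RNA from HEK293 cells, an established human line from embryonic kidney, by stranded total RNA sequencing. Confluent cultures received either the solvent dimethyl sulfoxide (DMSO) or 100 nM GSK-A1 for 24 h, with 3 libraries that the labels call biological replicates in each group. GSK-A1 is an inhibitor of phosphatidylinositol 4-kinase alpha (PI4KA), the enzyme that makes phosphatidylinositol 4-phosphate at the plasma membrane. Both groups were the same line with no genetic change given in the labels. The labels do not say whether replicates were separate passages, so p-values measure the spread between these libraries only.

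The libraries held 33040178 to 47777233 counts. Levels are given as CPM, a library's counts scaled to a common total after adjustment by the trimmed mean of M values. GSK-A1 replicate 2 stood apart: its correlations of log2 CPM with the other GSK-A1 libraries were 0.995 and 0.994, against 0.997 for GSK-A1 replicates 1 and 3 and for each DMSO pair. Where leaving it out moved the change of a kinase by over 1.5 times, the value without it is given below. Of 6 markers of the line, 4 (PAX2, VIM, KRT8 and KRT18) were at 1 CPM or more in every library, while NEFM stayed under 1 CPM and INA had a count in only 1 library. Their summed level was 1308 to 1377 CPM with DMSO and 1455 to 1566 CPM with GSK-A1, most of it from VIM (1085 ± 33 and 1217 ± 58 CPM, SD, n = 3). VIM and KRT8 were called higher, while PAX2 was called lower (log2 fold change -0.43 ± 0.12, SE, edgeR adjusted p = 0.0177). Among markers of other cell types, 0 of 4 blood markers, 0 of 3 endothelial, 0 of 2 hepatocyte and 0 of 2 keratinocyte markers reached 1 CPM in every library. The summed level of each of these lists was at most 0.901 CPM. Of 4 fibroblast markers, COL1A1 alone reached that level (6.81 ± 0.40 CPM in DMSO libraries, 6.11 ± 1.08 CPM in GSK-A1 libraries, SD, n = 3), while COL1A2 had no count in any library.

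As background, diacylglycerol is released at the plasma membrane when phospholipase C cuts a phosphoinositide whose synthesis begins with PI4KA. It recruits proteins with a C1 domain, such as protein kinase C, until a diacylglycerol kinase phosphorylates it. The phosphatidic acid so formed is a signal itself and is also carried to the endoplasmic reticulum, where CDP-diacylglycerol synthases and phosphatidylinositol synthase turn it back into phosphatidylinositol. The kinases fall into 5 types by the domains beside the catalytic domain. Type I enzymes (DGKA, DGKB, DGKG) bind calcium through EF hands, and type II enzymes (DGKD, DGKH, DGKK) carry a pleckstrin homology domain. The type III enzyme, DGKE, has a hydrophobic segment and prefers diacylglycerol with an arachidonoyl chain, the form found in phosphoinositides. Type IV enzymes (DGKZ, DGKI) carry ankyrin repeats and a MARCKS-like phosphorylation region, and the type V enzyme, DGKQ, has a Ras-associating domain.

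The mRNAs of 3 kinases rose with GSK-A1. DGKE rose from 44.3 ± 0.7 to 53.0 ± 2.0 CPM, DGKH from 33.2 ± 2.1 to 38.0 ± 2.1 CPM and DGKD from 84.7 ± 1.5 to 93.75 ± 2.27 CPM (SD, n = 3 each). These are rises of 19.5%, 14.6% and 10.8%. DGKZ, DGKQ and DGKA did not pass the test, and DGKG and DGKI were too low to be tested. Bulk RNA cannot tell a change in how many cells hold an mRNA from a change in its amount per cell.

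Of the 8 genes, 6 passed the filter on low counts and were tested, and edgeR's quasi-likelihood test called 3 of them higher and 0 lower at a Benjamini-Hochberg adjusted p under 0.05. Over all 16754 genes tested, 22.9% were called, 12.0% higher and 10.9% lower. At an unadjusted p under 0.05 the count lower was also 0, as it was with DESeq2 and limma-voom. At that threshold 1 kinase was lower under upper-quartile factors, under the replicate block, and without DMSO replicate 2 or GSK-A1 replicate 3. The groups did not overlap for the 3 called kinases, and over all genes tested 40.5% had groups that did not overlap. The median log2 fold change of the 6 tested kinases was 0.052, beside -0.011 over all genes tested, of which 47.5% were above 0. The 3 calls became 1 under upper-quartile factors, 1 without DMSO replicate 1, and 2 when DMSO replicate 2 or 3 or GSK-A1 replicate 3 was left out. They remained 3 without GSK-A1 replicate 2. Of all 3835 genes called 52.3% were higher, a share that was 33.3% under upper-quartile factors and 63.9% with a correction for GC content.

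**Figure D1:**
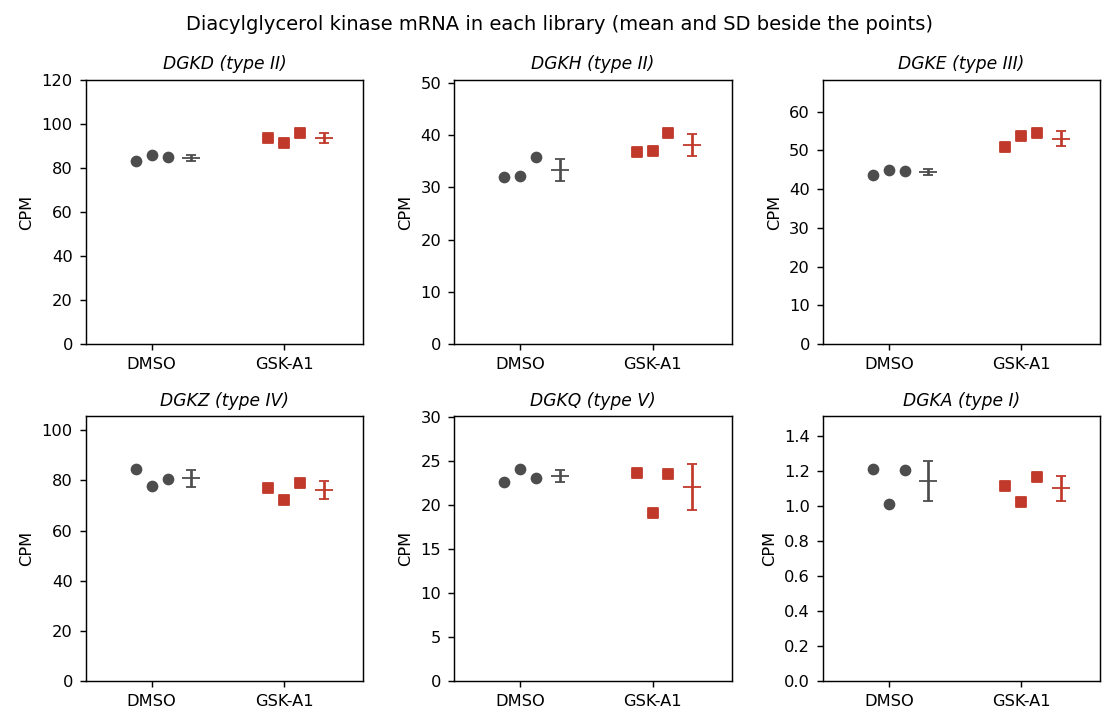
CPM (vertical axes, from 0) of the 6 tested kinases in each library, with DMSO as grey circles and GSK-A1 as red squares, and the group mean and SD beside the points. The 3 GSK-A1 points lie above the 3 DMSO points for DGKD, DGKH and DGKE, and the groups overlap for DGKZ, DGKQ and DGKA.

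The sequence before the start of the 3 kinases that rose, and of DGKZ for contrast, is shown because the 4 genes make up most of the family's mRNA. Of the windows printed, that of the first DGKH start differs in base composition from the others. The windows come from RefSeq (GRCh38.p14), which matched 7 of the 8 genes, and DGKQ was not matched. Each window was the 250 bases before a start, and bases that GENCODE 29 places in an exon were left out of the print. Each sequence is written 5′ to 3′ on the gene's strand, which is the forward strand for all 4 genes. Capitals mark GC boxes (GGGCGG or, on the other strand, CCGCCC) and CCAAT boxes (CCAAT or ATTGG), and capitals that touch can be matches that overlap.
DGKE, chr17:56833901-56834098: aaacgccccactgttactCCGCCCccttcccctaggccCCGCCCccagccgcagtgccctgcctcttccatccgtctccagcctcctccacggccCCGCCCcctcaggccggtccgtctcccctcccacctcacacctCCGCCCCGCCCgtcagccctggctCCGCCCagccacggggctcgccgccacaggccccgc
DGKD, most upstream start, chr2:233354244-233354493: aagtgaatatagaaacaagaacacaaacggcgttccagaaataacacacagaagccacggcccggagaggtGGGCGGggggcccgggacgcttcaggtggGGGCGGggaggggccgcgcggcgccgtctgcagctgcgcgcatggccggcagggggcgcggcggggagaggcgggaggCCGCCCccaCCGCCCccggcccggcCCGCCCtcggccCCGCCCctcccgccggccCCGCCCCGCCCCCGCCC
DGKH, first start, chr13:42039820-42040035: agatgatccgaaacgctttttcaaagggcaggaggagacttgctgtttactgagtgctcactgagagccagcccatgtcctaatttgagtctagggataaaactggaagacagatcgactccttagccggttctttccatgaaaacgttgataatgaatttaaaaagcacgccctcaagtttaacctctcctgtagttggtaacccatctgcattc
DGKH, second start, chr13:42048398-42048647: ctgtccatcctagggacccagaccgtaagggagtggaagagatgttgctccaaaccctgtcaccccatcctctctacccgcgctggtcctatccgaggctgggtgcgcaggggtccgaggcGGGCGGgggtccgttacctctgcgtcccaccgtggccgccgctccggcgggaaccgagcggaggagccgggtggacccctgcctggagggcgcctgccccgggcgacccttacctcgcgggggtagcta
DGKZ, most upstream start, chr11:46332676-46332904: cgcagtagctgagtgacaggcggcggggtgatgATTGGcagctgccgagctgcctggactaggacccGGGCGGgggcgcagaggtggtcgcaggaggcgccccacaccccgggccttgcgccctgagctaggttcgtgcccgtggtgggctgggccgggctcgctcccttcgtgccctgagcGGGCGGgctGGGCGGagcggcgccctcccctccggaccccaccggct

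The full DGKE window was 76.4% G and C and held 6 GC boxes. The most upstream DGKD window was 77.2% G and C with 9 GC boxes, and it also held 1 match to the EGR core GTGGGCG. DGKH differed between its starts, with 45.6% G and C and 0 GC boxes at the first and 70% with 1 GC box at the second. The most upstream DGKZ window, from a gene that did not pass the test, was 73.2% G and C and held 3 GC boxes and 1 CCAAT box. Of 35116 RefSeq windows of the same length, 42.6% held a GC box on either strand, 32% a CCAAT box and 8.53% the EGR core. The letters TGACG, part of the cyclic AMP response element, were in 21.2% of all windows. They had 1 match in the DGKE window and 1 in that of the first DGKH start. The DGKH match lies among the exonic bases left out of the print. All motifs were searched on both strands. The ETS letters CCGGAAG (8.52% of windows), the AP-1 letters TGACTCA (4.2%), the E-box CACGTG (6.34%) and the letters TATAAA (10.7%) were in none of these 5 windows. The other starts of these genes were not alike, with 0 GC boxes at both other DGKD starts, 0 at the second DGKZ start and 3 at the most downstream DGKZ start. A match is a match of letters only.

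Type III is a single gene. DGKE (ENSG00000153933, GENCODE 29, GRCh38, chromosome 17, 56834099 to 56869567, forward strand) measured 43.5, 44.9 and 44.6 CPM in the 3 DMSO libraries, given in replicate order here and below, and 50.8, 53.8 and 54.6 CPM in the GSK-A1 libraries. Every GSK-A1 library was above every DMSO library, and the DMSO libraries lay close together. The log2 fold change was 0.26 ± 0.04 (SE, 95% interval 0.16 to 0.35), a 1.20-fold rise with an edgeR adjusted p of 0.000753. DGKE was called under all 15 alternatives tried, with log2 fold changes of 0.22 to 0.30 and adjusted p-values of 1.31e-06 to 0.0112. An exon of TRIM25 on the opposite strand covers 0.732% of its exonic length. The longest transcript of DGKE is 39.8% G and C.

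The type II genes gave the other rises. DGKD (ENSG00000077044, chromosome 2, 233354507 to 233472104, forward strand), whose product is found at endocytic membranes, stood at 83.0, 85.8 and 85.2 CPM with DMSO and at 93.6, 91.6 and 96.1 CPM with GSK-A1. The groups did not overlap. The log2 fold change was 0.15 ± 0.04 (SE, 95% interval 0.065 to 0.23), a 1.11-fold rise with an edgeR adjusted p of 0.0125. The call was lost under upper-quartile factors (0.11, edgeR adjusted p = 0.0589), without DMSO replicate 1 (0.13, 0.0733) and without DMSO replicate 3 (0.15, 0.0539). It was kept in the other 12 of 15 alternatives, and the correction for GC content gave 0.22 (edgeR adjusted p = 8.69e-05). The longest DGKD transcript is 57.4% G and C.

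DGKH (ENSG00000102780, chromosome 13, 42040036 to 42256578, forward strand), a close relative of DGKD with the same split catalytic domain, stood at 31.9, 32.1 and 35.7 CPM with DMSO and at 36.7, 36.9 and 40.4 CPM with GSK-A1. In each group replicate 3 was the highest library, and the lowest GSK-A1 library exceeded the highest DMSO library by less than the range within either group. The log2 fold change was 0.20 ± 0.06 (SE, 95% interval 0.078 to 0.32), 1.15-fold, with an edgeR adjusted p of 0.0187. Leaving out DMSO replicate 1 (0.17, edgeR adjusted p = 0.111) or 2 (0.17, 0.107) or GSK-A1 replicate 3 (0.15, 0.0663) ended the call. It was also lost under upper-quartile factors (0.16, 0.0561) and with the correction for GC content (0.15, 0.0732), and it was kept in 10 of 15 alternatives. The longest DGKH transcript is 37.9% G and C. FHP1 on the same strand shares 1.49% of the exonic length of DGKH.

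DGKK, the remaining type II gene, had 3, 3 and 7 counts with DMSO and 4, 3 and 4 with GSK-A1 and did not pass the filter. In a fit of every gene with a count, which tested 32778 genes, its edgeR adjusted p was 0.956.

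Type IV was represented by DGKZ, while DGKI was near 0. DGKZ (ENSG00000149091, chromosome 11, 46332905 to 46380554, forward strand), whose product is found in the nucleus as well as at membranes, stood at 84.4, 77.6 and 80.6 CPM with DMSO and at 77.0, 72.3 and 79.0 CPM with GSK-A1. The groups overlapped, with the lowest value in GSK-A1 replicate 2. The log2 fold change was -0.09 ± 0.05 (SE, 95% interval -0.18 to 0.0087; edgeR adjusted p = 0.178). It was 0.0059 with the correction for GC content and -0.13 under upper-quartile factors (edgeR adjusted p = 0.0522). Without GSK-A1 replicate 2 it was -0.049 (edgeR adjusted p = 0.321) and without DMSO replicate 1 -0.056 (0.514), and leaving out other libraries gave -0.12 to -0.09. The longest DGKZ transcript is 61.1% G and C. Of its 50-base stretches 29.7% also occur in transcripts of other genes, most of them in DGKZP1, so the DGKZ count is uncertain where the authors' counting could split such reads. DGKZP1, a processed pseudogene of DGKZ on chromosome 13, itself measured 0.480 ± 0.105 CPM with DMSO against 0.507 ± 0.198 CPM with GSK-A1 (SD, n = 3). Its change, 0.04 ± 0.30 on the log2 scale (SE, edgeR adjusted p = 0.935), turned to -0.13 without DMSO replicate 2 and to -0.27 without GSK-A1 replicate 2.

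DGKI (ENSG00000157680, chromosome 7, 137381037 to 137847092, reverse strand), known mainly from the brain, had 1, 2 and 1 counts with DMSO and 1, 0 and 0 with GSK-A1. A count of 0 allows up to 3 counts, which is 0.0879 CPM in GSK-A1 replicate 2 and 0.0832 CPM in GSK-A1 replicate 3, and these limits cover counting error only. No difference in DGKI was detectable at this depth (edgeR adjusted p = 0.598 in the fit of every gene with a count).

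DGKQ (ENSG00000145214, chromosome 4, 958887 to 986895, reverse strand), the only type V gene, stood at 22.6, 24.0 and 23.1 CPM with DMSO and at 23.6, 19.1 and 23.5 CPM with GSK-A1. GSK-A1 replicates 1 and 3 lay within the DMSO range and replicate 2 lay below it. The log2 fold change was -0.07 ± 0.07 (SE, 95% interval -0.23 to 0.079; edgeR adjusted p = 0.498). It turned to 0.021 without GSK-A1 replicate 2 and to 0.024 with the correction for GC content, and without GSK-A1 replicate 1 it was -0.12. The longest DGKQ transcript, at 66.05% G and C, is the most G and C rich of the tested kinases. The part of GC content in any of these changes was not tested beyond that correction.

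The type I genes were low. DGKA (ENSG00000065357, chromosome 12, 55927319 to 55954027, forward strand), best known from T cells, stood at 1.21, 1.01 and 1.21 CPM with DMSO and at 1.12, 1.03 and 1.17 CPM with GSK-A1. All 3 GSK-A1 values lay within the DMSO range. The log2 fold change was -0.04 ± 0.17 (SE, 95% interval -0.41 to 0.32; edgeR adjusted p = 0.886), and it turned to 0.012 without DMSO replicate 1 and to 0.0039 without GSK-A1 replicate 2, and was -0.13 without DMSO replicate 2. Only 35 to 58 counts per library fell on DGKA, and the interval includes a rise as large as that of DGKE. PYM1 on the opposite strand covers 3.46% of its exonic length, and the longest DGKA transcript is 50.9% G and C.

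DGKG (ENSG00000058866, chromosome 3, 186105668 to 186362237, reverse strand) had 9, 2 and 3 counts with DMSO and 4, 2 and 1 with GSK-A1. The groups overlapped and the gene did not pass the filter (edgeR adjusted p = 0.540 in the fit of every gene with a count). DGKB had 0, 1 and 2 counts with DMSO and 2, 1 and 1 with GSK-A1 (edgeR adjusted p = 0.836 in the same fit). The data therefore do not resolve changes in these genes.

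**Figure D2:**
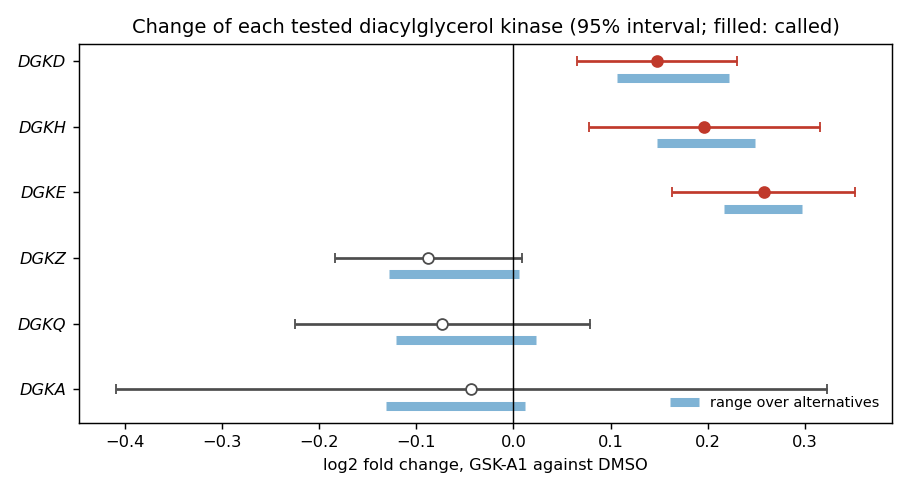
Log2 fold change of each tested kinase with GSK-A1 against DMSO (horizontal axis), with its 95% interval from edgeR, filled where the gene was called, and a blue bar for the range over the alternative settings. The intervals of DGKD, DGKH and DGKE lie above 0, those of DGKZ, DGKQ and DGKA include 0, and the blue bars of the last 3 reach across 0.

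Levels were then compared between the kinases per kilobase of merged exon, since CPM grows with transcript length. With DMSO, DGKD had 8.66 ± 0.15 CPM per kilobase, DGKZ 7.50 ± 0.32, DGKQ 4.68 ± 0.14, DGKE 4.06 ± 0.07 and DGKH 1.69 ± 0.11 (SD, n = 3). DGKA had 0.112 ± 0.011, and DGKG and DGKI had 0.0098 and 0.0020 CPM per kilobase. The ranges of neighbours in this order did not overlap among the first 6 genes with DMSO: DGKD lay at 8.50 to 8.78, DGKZ at 7.20 to 7.83, DGKQ at 4.56 to 4.84 and DGKE at 3.98 to 4.11. The order of close neighbours depended on the length used. With the length of the longest transcript, the mean of DGKZ (14.1 ± 0.6) was above that of DGKD (13.4 ± 0.2). The mean of DGKE (5.12 ± 0.08) was likewise above that of DGKQ (5.02 ± 0.15). The ranges overlapped within each of these pairs.

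With GSK-A1 the levels per kilobase were 9.59 ± 0.23 for DGKD, 7.05 ± 0.32 for DGKZ, 4.85 ± 0.18 for DGKE, 4.44 ± 0.52 for DGKQ and 1.94 ± 0.11 for DGKH (SD, n = 3). DGKE and DGKQ were then not separated, with ranges of 4.65 to 4.99 and 3.84 to 4.75. The sum over the 8 genes was 26.7 ± 0.1 with DMSO and 28.0 ± 1.1 with GSK-A1. As a share of that sum, DGKD was 32.4% with DMSO and 34.3% with GSK-A1, DGKE 15.2% and 17.35%, and DGKZ 28.1% and 25.2%. DGKQ made up 17.5% with DMSO (17.1% to 18.1%) and 15.8% with GSK-A1 (14.3% to 16.9%). The shares of these 4 genes did not overlap between the groups, but shares add up to a fixed total. A rise of 1 gene therefore lowers the shares of the others. In CPM the groups of DGKZ and DGKQ overlapped, and neither gene was called. Over all genes tested, 40.5% had groups that did not overlap in CPM. DGKH made up 6.33% and 6.92%, with ranges of 6.10% to 6.77% and 6.65% to 7.09% that overlapped.

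**Figure D3:**
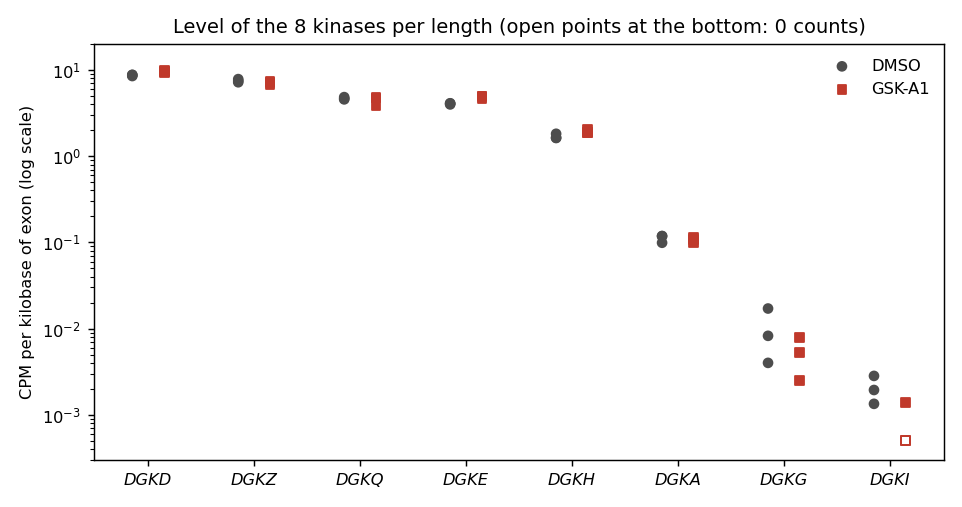
CPM per kilobase of merged exon (vertical axis, log scale) of the 8 kinases in each library, ordered by the DMSO level, with DMSO as grey circles and GSK-A1 as red squares. DGKD and DGKZ lead, DGKQ and DGKE follow, and DGKG and DGKI lie far below, with open points at the bottom for libraries with 0 counts.

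Ratios of kinases within a library do not depend on library scaling. The CPM ratio of DGKE to DGKZ was 0.516, 0.578 and 0.553 with DMSO and 0.660, 0.744 and 0.690 with GSK-A1. The groups did not overlap, and the difference was 0.35 on the log2 scale. For DGKD to DGKZ the difference was 0.24 and for DGKH to DGKZ 0.28, again without overlap. DGKE to DGKD was 0.524, 0.523 and 0.524 with DMSO and 0.543, 0.587 and 0.568 with GSK-A1, a difference of 0.11 without overlap. For each of these 4 ratios the exact two-sided permutation p was 0.1, the smallest that 3 against 3 libraries allow, and 0.15 when adjusted over the 6 ratios computed. The ratios of DGKE to DGKH (difference 0.063, exact permutation p = 0.5, adjusted 0.5) and of DGKD to DGKH (-0.047, exact permutation p = 0.4, adjusted 0.48) overlapped between the groups. With 3 libraries a group this test cannot reach 0.05 for any ratio, so it does not settle whether the 3 called kinases rose by different amounts. The ratios were not corrected for GC content. With that correction the log2 fold changes were 0.23 for DGKE, 0.22 for DGKD, 0.15 for DGKH and 0.0059 for DGKZ. DGKE and DGKD were then closer together than in the main fit, at 0.26 and 0.15.

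The genes whose pattern over the 6 libraries was nearest to that of DGKE were found by the root mean square distance of centred log2 CPM, among 12815 tested genes with a mean of at least 1 CPM. They were GUCY1A2, a subunit of soluble guanylate cyclase (distance 0.010), TOR1B, a torsin ATPase of the endoplasmic reticulum (0.015), and RBAK, a zinc finger protein (0.018). GUCY1A2 stood at 18.9, 19.3 and 19.2 CPM with DMSO and at 21.8, 22.9 and 23.1 CPM with GSK-A1. Their log2 fold changes were 0.24 ± 0.05, 0.25 ± 0.05 and 0.28 ± 0.04 (SE), and RBAK shares 5.62% of its exonic length with RBAK-RBAKDN on the same strand. By the same measure DGKD ranked 741 and DGKH 829 of the candidates. The choice by likeness to DGKE fixed the direction of these 3 genes.

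**Figure D4:**
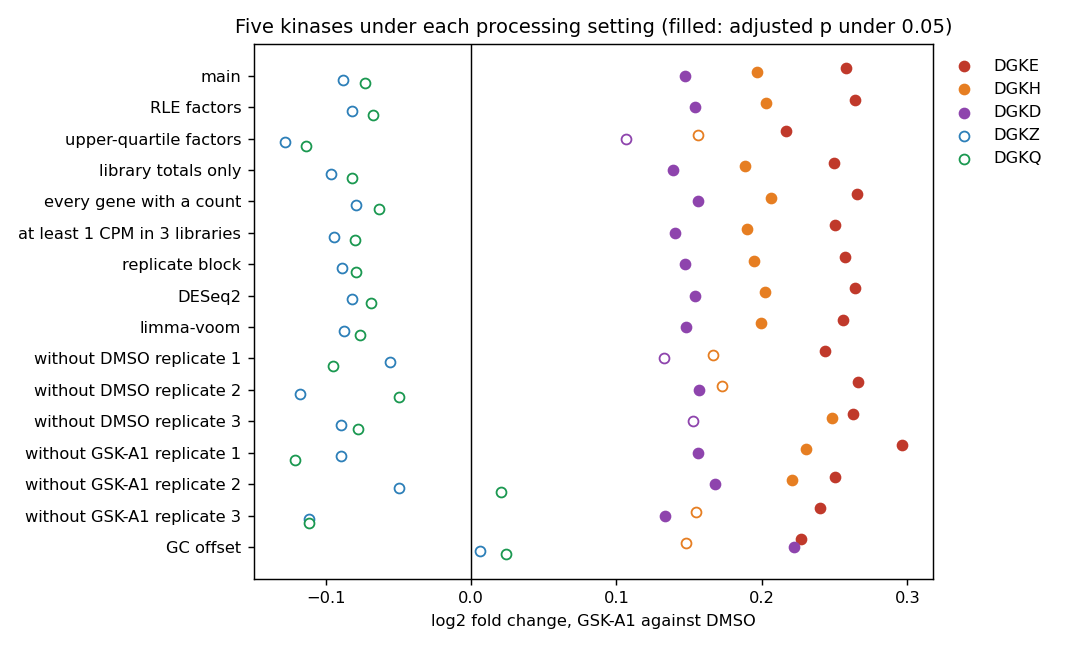
Log2 fold change with GSK-A1 against DMSO (horizontal axis) of DGKE, DGKH, DGKD, DGKZ and DGKQ under each processing setting (rows), filled where the adjusted p was under 0.05. DGKE is filled in every row, DGKD and DGKH lose the call in some rows while staying above 0, and DGKZ and DGKQ are never filled.

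The genes around the kinases in the lipid pathway were read from the same fit. Phospholipase C isozymes, which make diacylglycerol from phosphoinositides, had 10 of 12 members tested, with 4 lower, 0 higher (0 also at an unadjusted p under 0.05 and with DESeq2 and limma-voom) and a median log2 fold change of -0.13. Over all genes tested 10.9% were called lower, 12.0% higher and 22.9% in either direction, and the median was -0.011. Of the 10 isozymes 9 were below 0. PLCG1, the isozyme coupled to growth factor receptors, stood at 136.8, 136.5 and 137.3 CPM with DMSO and at 121.8, 117.2 and 127.7 CPM with GSK-A1. All GSK-A1 libraries were lower (-0.16 ± 0.04, SE, edgeR adjusted p = 0.00701), a call kept under all 15 alternatives. PLCH1 fell by 0.20 ± 0.06 (edgeR adjusted p = 0.0208, up to 0.111 over its alternatives) and PLCD4, at under 1 CPM on average, by 0.74 ± 0.25 (0.0394, up to 0.163) on the log2 scale. The last, PLCD1 (-0.43 ± 0.15, edgeR adjusted p = 0.0470, up to 0.133), was named after its values were seen because it completes the count. The 4 calls became 1 without DMSO replicate 3 or with DESeq2, and 2 with limma-voom or when replicate 1 or 2 of DMSO or replicate 1 or 3 of GSK-A1 was left out.

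Other makers of diacylglycerol, the phosphatidate phosphatases and sphingomyelin synthases, had 2 of 8 tested members higher and 0 lower (0 also at an unadjusted p under 0.05, against 1 with DESeq2 and 1 with limma-voom at that threshold), with a median of 0.0073. The share called is near the 22.9% of all genes. Both were the synthases, which release diacylglycerol when they make sphingomyelin. SGMS2, the plasma membrane form, stood at 37.5, 35.8 and 34.7 CPM with DMSO and at 46.5, 51.8 and 46.1 CPM with GSK-A1. Its groups were well apart (0.42 ± 0.05, SE, edgeR adjusted p = 5.25e-05), and the call was kept under all 15 alternatives. SGMS1, the Golgi form, rose by 0.17 ± 0.05 (edgeR adjusted p = 0.0258), a call lost in 5 alternatives with an adjusted p of up to 0.102. The 2 calls became 1 without any 1 of the DMSO libraries, without GSK-A1 replicate 1 or under upper-quartile factors, and 4 with the correction for GC content. A call in the other direction, 1 lower, appeared under the replicate block and without GSK-A1 replicate 3, with 2 higher in both.

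Lipases and acyltransferases that act around diacylglycerol had 1 of 5 tested members higher and 1 lower, with a median of -0.069. Over all genes tested the shares were 12.0% higher and 10.9% lower. DGAT2, which makes triglyceride from diacylglycerol, fell from 5.86 ± 0.68 to 4.02 ± 0.33 CPM (SD, n = 3; -0.56 ± 0.11, SE, edgeR adjusted p = 0.00156) and was called under all 15 alternatives. DAGLB, a lipase that cuts diacylglycerol to monoacylglycerol, rose by 0.21 ± 0.05 (edgeR adjusted p = 0.0103). That call was lost when DMSO replicate 2 or 3 or GSK-A1 replicate 1 was left out (adjusted p up to 0.0580), so the 2 calls became 1 there. KDELR2 on the same strand shares 6.53% of the exonic length of DAGLB.

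Families of diacylglycerol-binding proteins, in which not every member need bind it, had 1 of 18 tested members higher and 2 lower, with a median of -0.016. A smaller share was thus called than the 22.9% of all genes. PRKCD, the calcium-independent protein kinase C delta, rose by 0.17 ± 0.05 (SE, edgeR adjusted p = 0.0170, up to 0.0935 over its alternatives). PRKCQ, protein kinase C theta, fell by 0.22 ± 0.08 on the log2 scale (edgeR adjusted p = 0.0485, called in 4 of 15 alternatives), and RASGRP1, a Ras exchange factor, by 0.21 ± 0.07 (0.0486, called in 6 of 15). The 3 calls became 0 without DMSO replicate 1 or DMSO replicate 3, where 4 were under an unadjusted p of 0.05 in each case, and 1 without DMSO replicate 2 or GSK-A1 replicate 3, under RLE factors, with DESeq2 and with limma-voom. The balance of directions also turned, with 0 higher and 3 lower under upper-quartile factors and 3 higher and 1 lower with the correction for GC content.

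Enzymes that make phosphatidic acid by other routes had 1 of 8 tested members higher and 2 lower, beside 22.9% of all genes called in either direction, with a median of -0.015. These 3 are acyltransferases that add a fatty acid to lysophosphatidic acid. AGPAT4 rose from 61.5 ± 1.3 to 72.3 ± 4.9 CPM (SD, n = 3; 0.23 ± 0.05, SE, edgeR adjusted p = 0.00265). AGPAT1 fell from 130.4 ± 2.4 to 113.8 ± 2.3 CPM (-0.20 ± 0.04, edgeR adjusted p = 0.00142), although PPT2-EGFL8 on the opposite strand covers 29.9% of its exonic length and its reads could be split if strand was not used. Both calls were kept under all 15 alternatives. AGPAT3 fell by 0.12 ± 0.03 on the log2 scale (edgeR adjusted p = 0.0159, up to 0.208 over its alternatives).

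Enzymes that use phosphatidic acid on the way to phosphatidylinositol and cardiolipin had 2 of 5 tested members higher and 0 lower (0 also at an unadjusted p under 0.05 and with DESeq2), with a median of 0.054, beside 12.0% of all genes called higher. Both were CDP-diacylglycerol synthases. CDS1 stood at 39.9, 39.7 and 40.7 CPM with DMSO and at 43.6, 47.5 and 44.9 CPM with GSK-A1 (0.17 ± 0.05, SE, edgeR adjusted p = 0.0132, up to 0.0689 over its alternatives). CDS2 stood at 56.8, 57.9 and 57.1 CPM and at 62.6, 62.1 and 62.5 CPM (0.12 ± 0.04, edgeR adjusted p = 0.0349, called in 8 of 15 alternatives). The groups did not overlap for either, which was also so for 40.5% of all genes tested. The 2 calls became 0 without DMSO replicate 1 or DMSO replicate 2, where both stayed under an unadjusted p of 0.05. They became 1 when replicate 3 of DMSO or replicate 1 or 3 of GSK-A1 was left out, under upper-quartile factors and with library totals only.

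**Figure D5:**
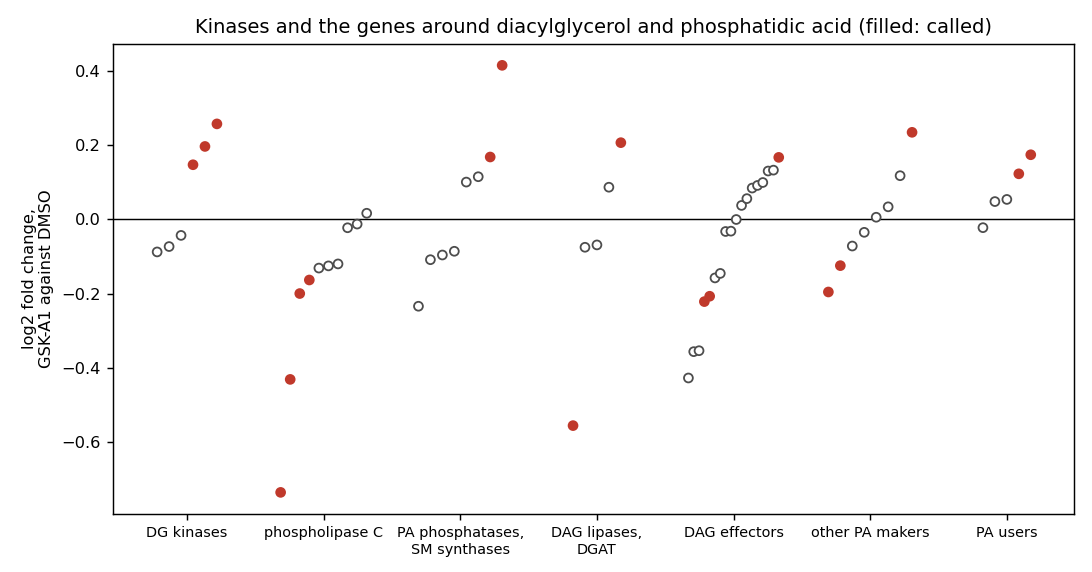
Log2 fold change with GSK-A1 against DMSO (vertical axis) of each tested gene of 7 groups around diacylglycerol (DAG) and phosphatidic acid (PA), with called genes filled in red. The 3 called diacylglycerol kinases are above 0, the 4 called phospholipase C isozymes are below 0, and the other groups hold 2 or 3 called genes each.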

How the data were processed

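Per the labels, the 6 HEK293 libraries were made with a stranded kit and sequenced on an Illumina HiSeq, all with the same lane label. The authors deposited raw counts per gene in whole numbers, 1 column per library. The submitters' processing notes name cutadapt 5.1, STAR 2.7.11b, featureCounts (Subread 2.1.1), DESeq2 1.38.0 and GRCh38.p13. The annotation release, strand setting and filters are not given in the sources used here.

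Genes were kept by filterByExpr (smallest count 10, smallest total 15) and tested with edgeR 4.0.16 in R 4.3.3 (trimmed mean of M values, robust quasi-likelihood F test), adjusted by Benjamini-Hochberg over the 16754 genes tested. Totals per library of 33040178 to 47777233 counts and a common biological coefficient of variation of 4.06% set the precision. Coordinates, lengths and GC content come from GENCODE 29 (GRCh38), which may differ from the authors' annotation. The tests were checked on simulated counts whose changes were larger than those of the kinases. That check does not cover changes as small as theirs.

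All 8 kinases are named, with any other gene whose symbol starts with DGK, up to 3 called genes per pathway list with the smallest p, and the 3 genes nearest to the kinase with the smallest p. The genes and lists were chosen with earlier results of these data known.

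Alternatives were other library factors (RLE, upper-quartile, totals), other filters, DESeq2 1.42.0, limma-voom (limma 3.58.1), the replicate block, a threshold of 0.01 and leaving out each library. A correction for GC content, a loess trend (span 0.3) per library entered as an offset, was added after seeing the data. All 6 tested kinases and 96.1% of tested genes had a GC value.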

Additional observations from a re-analysis of the deposited data

How the results depend on the processing

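DGKE was called higher in all 15 alternatives and DGKD and DGKH stayed above 0 in all 15, with 12 and 10 calls. The count of kinases called was 1 under upper-quartile factors and 1 at an adjusted p under 0.01, and 1 to 3 when 1 library was left out. The count of genes called was 1871 at an adjusted p under 0.01, and 2163 to 4890 when 1 library was left out, lowest without a DMSO library (2163, 2213 and 2206 without replicates 1, 2 and 3) and highest without GSK-A1 replicate 2. Among the genes named, signs turned only where no call was made. DGKA ranged from -0.13 to 0.012 with 1 library left out (0.0039 without GSK-A1 replicate 2), DGKQ from -0.12 to 0.021, and DGKZP1 from -0.27 to 0.24 (-0.13 without DMSO replicate 2). With the correction for GC content, added after seeing the data, DGKZ was at 0.0059 and DGKQ at 0.024. The cause was not tested. Same-numbered libraries of the groups correlated at 0.011 to 0.032 in their deviations from the group means. Each DMSO library correlated best with the GSK-A1 library of its own number, but GSK-A1 replicate 1 correlated best with DMSO replicate 2. These weak correlations do not settle whether the numbers pair the libraries. The replicate block gave 4127 genes called, against 3835 in the main fit, and 3 kinases in both. DGKG, DGKI, DGKB and DGKK, at 0 to 9 counts per library, are limited by depth.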
